A study of Mus musculus with 2 samples.

Results

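The 8 genes described here carry out or control de novo lipogenesis in the mouse liver. They are *Srebf1* and *Mlxipl*, which encode the transcription factors SREBP-1 and ChREBP, the enzyme genes *Acly*, *Acaca*, *Acacb*, *Fasn* and *Me1*, and *Thrsp*, which encodes the small nuclear and cytosolic protein Spot 14. They were taken by gene symbol from a table of 45777 symbols, all 8 were found, and their 47 transcripts were summed per symbol. All 8 were among the 15857 genes with at least 10 estimated counts in at least 1 library. Liver RNA was sequenced from C57BL/6 mice that overexpressed either GFP (AAV-GFP, the control) or the long non-coding RNA *Wee1-AS* (AAV-*Wee1-AS*). Both groups were HFD-fed. According to the methods, feeding began at 7 weeks of age and lasted 18 weeks, and the virus was given retro-orbitally in week 13, 5 weeks before the end. The AAV-*Wee1-AS* vector was of the AAV9 serotype and carried the CMV promoter, which is not specific to hepatocytes. There was 1 library per group, while the design text mentions 4 samples. With 1 library per group, a difference between mice or between library preparations and a difference due to the virus cannot be told apart, and no p-value was computed. The *Wee1-AS* transcript itself was not analysed here.

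De novo lipogenesis turns citrate exported from mitochondria into palmitate. ATP-citrate lyase splits citrate into acetyl-CoA, acetyl-CoA carboxylase makes malonyl-CoA from it, and fatty acid synthase joins these units using NADPH, part of which comes from malic enzyme. In the liver, SREBP-1c carries the insulin signal and ChREBP the carbohydrate signal to the promoters of these genes, and the pathway is known for its activity in fatty liver.

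The libraries held 55466182 estimated counts (AAV-GFP) and 48079335 (AAV-*Wee1-AS*) in all, and the 8 genes lay between 5012 and 88364 counts in a library. Intervals given below are exact 95% Clopper-Pearson intervals of the ratio. They cover counting error only, and the counts are shares assigned by the quantification program and not independent molecules. All 8 hepatocyte markers checked (*Alb*, *Apoa1*, *Apob*, *Ttr*, *Cps1*, *Hnf4a*, *Tat* and *Cyp2e1*) were present, with a summed level of 77144 TPM in AAV-GFP and 86983 TPM in AAV-*Wee1-AS*. TPM is a level per length of transcript, scaled so that every library has the same total. White fat also makes fatty acids by this pathway. Of 6 adipocyte markers, *Lep* and *Plin1* were at 0 counts in both libraries, *Adipoq* had 2 counts in each and *Retn* had 0 and 4. *Cfd* and *Adrb3* made up most of the summed level of the 6, which was 17.3 TPM in AAV-GFP and 17.8 TPM in AAV-*Wee1-AS*. In bulk liver, fewer cells of a type and less RNA per cell cannot be told apart.

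None of the 8 genes differed by more than 2-fold between the libraries. Of all 15857 genes, 22.2% were more than 2-fold higher in AAV-*Wee1-AS* and 8.71% more than 2-fold lower. The 8 genes went in both directions: 6 had a ratio above 1 and 2 below it. *Fasn* and *Srebf1* were lower in AAV-*Wee1-AS*, *Acaca* and *Thrsp* were the furthest above AAV-GFP, and *Acacb* was the only member whose counting interval held equal levels. At a limit of 1.5-fold, chosen after the values were seen, 2 of the 8 were higher (*Acaca*, *Thrsp*) and 2 lower (*Fasn*, *Srebf1*), against 31.8% and 24% of all genes. *Srebf1* lay at that limit, at 1.51-fold, and did not pass it when the scaling factors were computed on the 15857 genes kept (log2 ratio -0.58). The median log2 ratio of the 8 was 0.23, and that of all genes was -0.02. Because the ratio moved with GC content across all genes, a GC-adjusted log2 ratio is given beside it: the log2 ratio less the median of genes of like GC content (1 of 10 groups of equal size, ordered by the GC content of the longest transcript). On this scale none of the 8 genes passed 2-fold, where 9.34% of 14995 genes were higher and 8.92% lower. With trends with GC content and transcript length both removed, 1 of the 8 was higher (*Thrsp*) and 0 lower, where 6.93% of genes were higher and 8.92% lower. *Srebf1* and *Me1* changed sign when GC-adjusted, and *Me1*, *Acaca* and *Acacb* did so with length also adjusted.

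**Figure D1:**
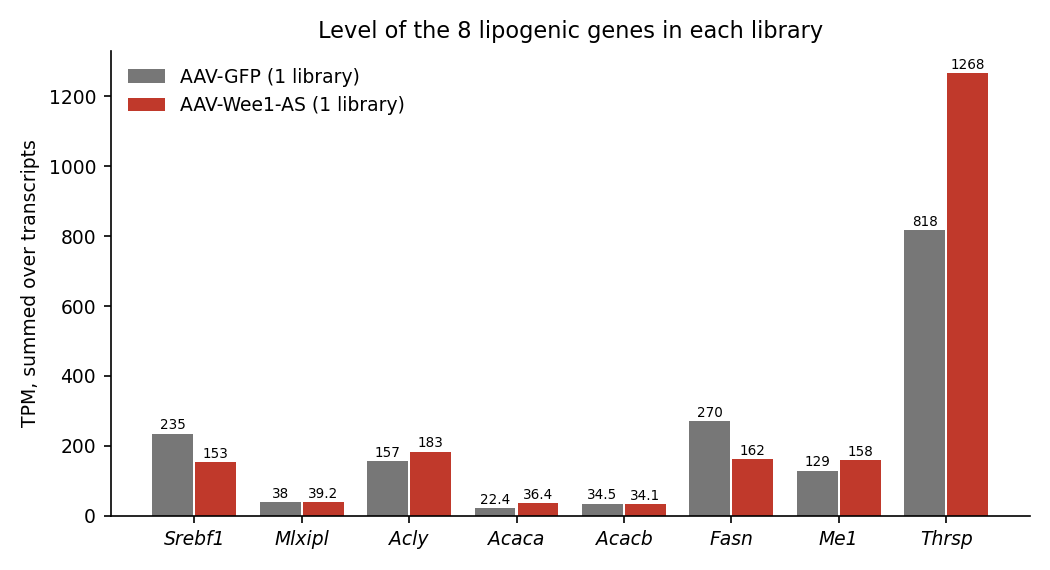
Level of each lipogenic gene in the AAV-GFP (grey) and the AAV-*Wee1-AS* (red) library, as TPM summed over the transcripts of the gene, with 1 library per group and so no error bar. *Thrsp* had the highest level in both libraries (818 and 1268 TPM), and *Fasn* and *Srebf1* were the members with visibly shorter red bars.

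*Srebf1* encodes SREBP-1, a membrane-bound factor that is cut in the Golgi and then activates genes of fatty acid synthesis. It had 33483 counts in AAV-GFP and 18436 in AAV-*Wee1-AS*, which is 235 and 153 TPM. The library of AAV-*Wee1-AS* was 1.51-fold lower, with a log2 ratio of -0.60 (-0.62 to -0.57). GC-adjusted, it was at 0.09, so the lower level did not hold against genes of like GC content, and it was at -0.09 with length also adjusted. The values of its starts below are not GC-adjusted. The gene lies on the minus strand of chromosome 11 (mm10, chr11:60199084-60224186). Its transcripts begin at several first exons. The start of SREBP-1c, the form that predominates in liver, is downstream of that of SREBP-1a, the more potent form of dividing cells.

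Both *Srebf1* starts were lower in AAV-*Wee1-AS*, the SREBP-1a start by more. Transcripts from the SREBP-1c start had 28183 counts in AAV-GFP and 16643 in AAV-*Wee1-AS* (log2 ratio -0.50, -0.52 to -0.47). Transcripts from the SREBP-1a start, 10156 bases upstream, had 3952 and 1427 counts (log2 ratio -1.20, -1.29 to -1.12), of which NM_011480 had 2170 and 779 and NM_001313979 had 1782 and 648. The SREBP-1a start therefore held 11.8% of the counts of the gene in AAV-GFP (exact binomial interval 11.5% to 12.2%) and 7.74% in AAV-*Wee1-AS* (7.36% to 8.14%). The 3 other annotated starts were also lower in AAV-*Wee1-AS*, with 982, 314 and 52 counts in AAV-GFP and 270, 85 and 11 in AAV-*Wee1-AS*. These transcripts share most of their sequence, so their shares depend on how the quantification program assigned common reads. Within the SREBP-1c start, 2 nearly identical models differed in opposite directions: NM_001358314 had 28134 and 14365 counts and the predicted XM_006532716 had 49 and 2278. *Rai1*, which overlaps *Srebf1* on the opposite strand, had 485 and 403 counts, and whether the counting used strand is not given in the sources used here.

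The 250 bases before each of these starts are shown because transcripts from both were lower, by different amounts. They are RefSeq sequences of build GRCm38.p6, the build of mm10, on the strand of the gene, at chr11:60210472-60210721 for SREBP-1c and chr11:60220628-60220877 for SREBP-1a. Capitals mark matches, on either strand, to 4 motifs: the E-box CACGTG, read by ChREBP, USF and clock factors among others, the sterol response element as TCACNCCAC, the CCAAT box of NF-Y as CCAAT, and the GC box of Sp1 as GGGCGG. In the windows printed here, no match to one of these motifs overlaps a match to another of them.
*Srebf1*, SREBP-1c start: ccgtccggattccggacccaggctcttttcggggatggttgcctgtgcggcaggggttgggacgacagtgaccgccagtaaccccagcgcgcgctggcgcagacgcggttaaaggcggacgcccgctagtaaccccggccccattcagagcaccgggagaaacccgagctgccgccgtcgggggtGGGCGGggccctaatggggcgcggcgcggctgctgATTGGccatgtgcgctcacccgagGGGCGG
*Srebf1*, SREBP-1a start: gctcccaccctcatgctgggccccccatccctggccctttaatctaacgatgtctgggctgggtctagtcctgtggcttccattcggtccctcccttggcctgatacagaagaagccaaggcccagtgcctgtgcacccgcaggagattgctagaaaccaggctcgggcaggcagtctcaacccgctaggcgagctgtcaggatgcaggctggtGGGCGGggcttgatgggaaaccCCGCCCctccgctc
The SREBP-1c window held 2 GC boxes and 1 CCAAT box on the opposite strand, and the SREBP-1a window held 2 GC boxes and none of the other 3 motifs. Of 32851 windows of the same length in the RefSeq table, 32.7% held a GC box, 33.8% a CCAAT box, 6.02% the E-box and 1.05% the sterol response element. A match is a string of letters and not a bound site.

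The partners of SREBP-1 differed in both directions as scaled. *Srebf2*, the paralog that drives cholesterol synthesis, had 3974 and 2327 counts (log2 ratio -0.51, GC-adjusted 0.18). *Scap*, the escort that carries SREBPs to the Golgi, had 7818 and 4796 counts (-0.44, GC-adjusted 0.25). Of the retention proteins that hold the complex in the endoplasmic reticulum, *Insig1* had 6677 and 8630 counts (0.63, GC-adjusted 0.50) and *Insig2* 6581 and 7042 (0.36, GC-adjusted -0.36). Of these 4 genes, *Insig1* alone kept its sign when GC-adjusted. With length also adjusted, *Insig1* (0.46) and *Srebf2* (-0.17) kept theirs, and *Scap* (0.09) and *Insig2* (-0.12) did not. Of the 6 genes of SREBP processing, *Mbtps2*, the site-2 protease, was the only one past 2-fold (1 higher, 0 lower), at low counts of 124 and 263, and it was at -0.10 once GC-adjusted.

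*Mlxipl* encodes ChREBP, which dimerizes with MLX and is activated by sugar phosphates. It had 5182 counts in AAV-GFP and 5012 in AAV-*Wee1-AS*, or 38.0 and 39.2 TPM, so the level was nearly the same in both. The log2 ratio was 0.22 (0.16 to 0.27), and 0.83 GC-adjusted. The adjustments rest on a GENCODE transcript of 3622 bases. Models of 5046 to 5244 bases, with a 3′ end further downstream, held 52.5% of the counts in AAV-GFP and 76.8% in AAV-*Wee1-AS*. The gene lies on the plus strand of chromosome 5 (chr5:135089890-135139768), and its 16 transcripts start at 2 places 16979 bases apart. The upstream start gives ChREBP-β, the shorter and more active form whose promoter ChREBP itself activates, and the downstream start gives ChREBP-α.

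Summed by start, the forms of *Mlxipl* differed in opposite directions, but this did not hold within a 3′ end. The values by start and by 3′ end are not GC-adjusted, and the median log2 ratio of genes of like GC content to *Mlxipl* was -0.61. Transcripts from the ChREBP-β start had 916 counts in AAV-GFP and 462 in AAV-*Wee1-AS* (log2 ratio -0.72, -0.89 to -0.56). Transcripts from the ChREBP-α start had 4266 and 4550 (0.36, 0.30 to 0.42). The share of the β start was 17.7% in AAV-GFP (16.6% to 18.7%) and 9.22% in AAV-*Wee1-AS* (8.43% to 10.1%). Of the β models, NM_001359237 had 677 and 137 counts and XM_006504482 had 239 and 325.

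These models also differ in their 3′ ends. Transcripts ending at the more upstream of the main 3′ ends had 2373 counts in AAV-GFP and 978 in AAV-*Wee1-AS*, a share of 45.8% and 19.5%. It is called the upstream 3′ end here. Those ending 1567 bases further downstream had 2720 and 3851, a share of 52.5% and 76.8%. Minor 3′ ends still further upstream, from the α start only, had 68 and 159 counts (log2 ratio 1.46) and 21 and 24 (0.42). With the downstream 3′ end, the β start had 239 and 325 counts (log2 ratio 0.70, 0.46 to 0.95) and the α start 2481 and 3526 (0.77, 0.70 to 0.85), so both were higher in AAV-*Wee1-AS* by like amounts. With the upstream 3′ end both were lower, the β start by more, with 677 and 137 counts (-2.03, -2.32 to -1.77) against 1696 and 841 (-0.75, -0.87 to -0.63). The direction of these sums thus went with the 3′ end, while their size at the upstream 3′ end also differed by start. Single models did not all share that direction: of those with the upstream 3′ end, NR_152881 had 132 and 227 counts and NR_152882 had 118 and 139. Every curated *Mlxipl* transcript has the upstream 3′ end, and with curated transcripts only the log2 ratio of the gene was -0.97 in place of 0.22. Of the α models of at least 5% in a library, the curated NM_021455 had 975 and 291 counts and NR_152880 had 471 and 184. The predicted XR_377113 had 53 and 901 and XM_030254741 had 132 and 287, both higher in AAV-*Wee1-AS*. The predicted XM_006504477, XM_006504478, XM_006504479, XM_006504480 and XM_006504481 each had between 253 and 630 counts in a library.

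**Figure D2:**
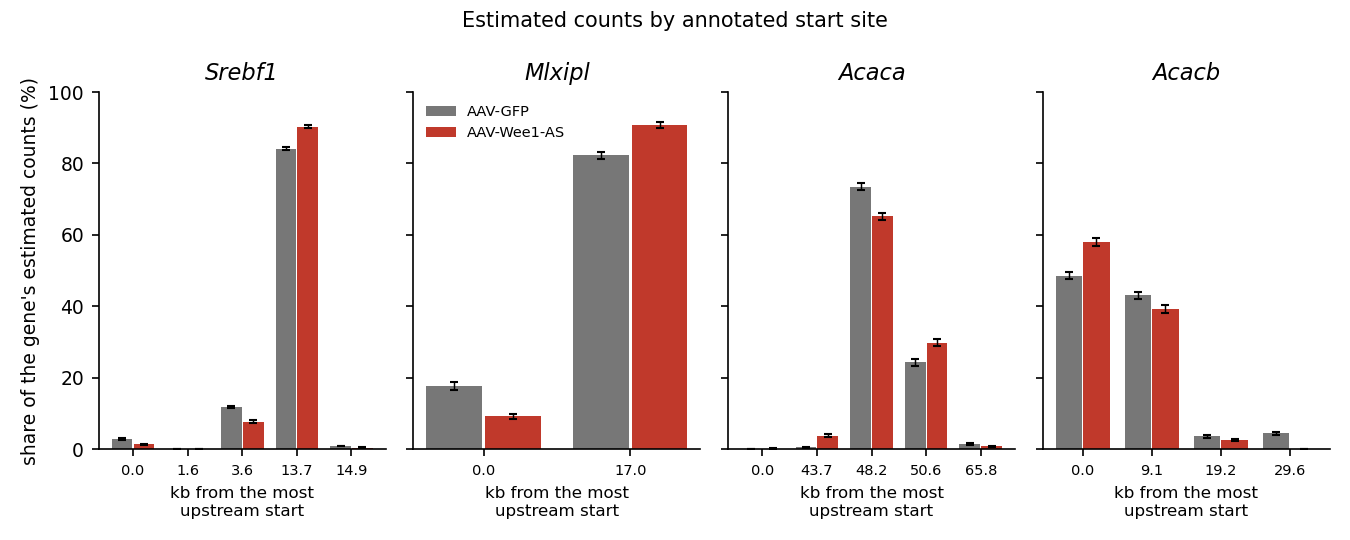
Share of the estimated counts of *Srebf1*, *Mlxipl*, *Acaca* and *Acacb* in percent, by annotated start site, ordered from the most upstream start and labelled by distance in kb, for AAV-GFP (grey) and AAV-*Wee1-AS* (red). Bars are 1 library each with the exact 95% binomial interval, and the shares of the SREBP-1a start (11.8% and 7.74%) and of the ChREBP-β start (17.7% and 9.22%) were smaller in AAV-*Wee1-AS*.

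The windows before both *Mlxipl* starts are shown because the counts summed by start differed, at chr5:135089640-135089889 for ChREBP-β and chr5:135106641-135106890 for ChREBP-α.
*Mlxipl*, ChREBP-β start: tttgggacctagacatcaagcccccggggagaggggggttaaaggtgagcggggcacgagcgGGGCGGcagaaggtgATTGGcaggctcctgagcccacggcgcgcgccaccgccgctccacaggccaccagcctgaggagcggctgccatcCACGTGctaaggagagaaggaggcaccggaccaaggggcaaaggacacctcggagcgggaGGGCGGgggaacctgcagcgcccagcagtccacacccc
*Mlxipl*, ChREBP-α start: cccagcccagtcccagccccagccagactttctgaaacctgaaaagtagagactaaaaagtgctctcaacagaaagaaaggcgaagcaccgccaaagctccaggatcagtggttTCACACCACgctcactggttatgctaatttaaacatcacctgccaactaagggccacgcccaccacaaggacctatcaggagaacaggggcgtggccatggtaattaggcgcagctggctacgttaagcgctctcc
The β window held 1 E-box, 98 to 93 bases before the start, with 2 GC boxes and 1 CCAAT box. The α window held none of these and 1 match to the sterol response element, 136 to 128 bases before the start. Among the 12 windows that the table holds for the 8 genes, the β window was the only one with the E-box.

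The partners of ChREBP were close to equal in the libraries. *Mlx* had 2041 and 1561 counts (log2 ratio -0.12), and the paralog *Mlxip* 505 and 400 (-0.07). Of 10 glucose-response genes, 0 were more than 2-fold higher and 2 more than 2-fold lower in AAV-*Wee1-AS*, with a median of -0.52. The lowest was *Rgs16*, a regulator of G protein signalling, with 19562 and 7082 counts (-1.20), and the other was *Fgf21*, a liver hormone, with 367 and 144 (-1.08). The highest was *G6pc*, the last step of glucose release, with 8514 and 9761 (0.46). GC-adjusted, the median of the 10 was -0.18, and *Rgs16* (-0.71) and *Fgf21* (-0.58) were within 2-fold. *Slc2a2*, another of the 10, was at 0.25 as scaled and -0.88 GC-adjusted. With length also adjusted, it was past 2-fold lower (-1.24).

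*Acly* encodes ATP-citrate lyase, which makes the cytosolic acetyl-CoA. It had 22768 counts in AAV-GFP and 22529 in AAV-*Wee1-AS*, or 157 and 183 TPM, a log2 ratio of 0.25 (0.22 to 0.28) and 0.58 GC-adjusted. Its 2 transcripts start at the same base of chromosome 11 (chr11:100476352-100528000) and shared the counts alike: NM_001199296 held 31.4% in AAV-GFP and 33.7% in AAV-*Wee1-AS*, and NM_134037 the rest. Its neighbours in the pathway were split. *Slc25a1*, the mitochondrial citrate carrier, had 21231 and 13158 counts (-0.43, GC-adjusted 0.26), and *Acss2*, which makes acetyl-CoA from acetate, had 6780 and 7902 (0.48, GC-adjusted 0.00064). None of the 9 genes of citrate and acetyl-CoA supply reported here passed 2-fold, with a median of -0.24, from *Cs*, the citrate synthase (-0.66), to *Pdha1*, a subunit of pyruvate dehydrogenase (0.81). Their GC-adjusted median was -0.46, with *Cs* at -0.80 and *Pdha1* at 0.09. *Mpc2*, a subunit of the mitochondrial pyruvate carrier, was at -0.16 as scaled. It was past 2-fold lower GC-adjusted (-1.29) and with length also adjusted (-1.24).

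The carboxylases that make malonyl-CoA differed from each other as scaled, but lay close together GC-adjusted (*Acaca* 0.57, *Acacb* 0.63) and with length also adjusted (-0.08 and -0.03). They stayed apart with the length trend alone removed (*Acaca* -0.30, *Acacb* -0.92). With curated transcripts only they were at -0.03 and -0.41, but each value then rests on 1 minor transcript. These are NM_133360, with 119 and 94 counts, and NM_133904, with 370 and 225. As scaled, their counting intervals overlap (-0.48 to 0.33 and -0.70 to -0.21). *Acaca* encodes ACC1, the cytosolic form whose product feeds fatty acid synthase. It had 7817 counts in AAV-GFP and 10594 in AAV-*Wee1-AS*, or 22.4 and 36.4 TPM, and was 1.63-fold higher in AAV-*Wee1-AS* (log2 ratio 0.70, 0.66 to 0.74), the highest ratio of the 8. *Acacb* encodes ACC2, which lies at the mitochondrial surface and whose product inhibits the entry of fatty acids. It had 10005 and 8436 counts, or 34.5 and 34.1 TPM, with a log2 ratio of 0.02 whose interval held 0 (-0.02 to 0.06). ACC2 was above ACC1 in AAV-GFP and just below it in AAV-*Wee1-AS* on the TPM scale.

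Each carboxylase has several annotated starts, whose values are not GC-adjusted. For *Acaca* (chr11:84129635-84401651, plus strand), the main start had 5742 and 6905 counts (log2 ratio 0.53) and the next start downstream 1908 and 3166 (0.99), so both were higher in AAV-*Wee1-AS*. The main start holds XM_006531955, with 2668 and 2560 counts, and XM_006531957, with 2863 and 4304, and the next holds XM_030245462 alone. A start further upstream had 47 and 411 counts. For *Acacb* (chr5:114146321-114250761, plus strand), the most upstream start had 4867 and 4896 counts (0.27) and the next 4313 and 3311 (-0.12). The first holds XM_006530111, with 2647 and 2585 counts, and XM_006530113, with 2220 and 2311, and the other holds XM_006530112 alone. The predicted transcript XM_006530114 had 455 counts in AAV-GFP and 4 in AAV-*Wee1-AS*. On the other strand of *Acaca* lie *Tada2a*, with 140 and 184 counts, and *Gm11437*, with 47 and 180, both far below *Acaca*. The windows in the RefSeq table belong to minor starts of *Acaca* and *Acacb* and are not shown.

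Genes that break down or answer to malonyl-CoA differed in both directions. *Mlycd*, which breaks malonyl-CoA down, had 7198 and 3737 counts (log2 ratio -0.68, GC-adjusted 0.0066). *Cpt1a*, the liver carnitine palmitoyltransferase that malonyl-CoA inhibits, had 31370 and 35483 (0.44, GC-adjusted 0.56). *Hlcs*, which attaches the biotin that both carboxylases need, had 823 and 824 (0.26, GC-adjusted 0.38). Of the 4 genes of malonyl-CoA breakdown and its target, 0 were more than 2-fold higher and 1 lower, the muscle form *Cpt1b*, with 373 and 101 counts (-1.60, GC-adjusted -1.11). *Btd*, which recycles biotin, was the other gene of biotin attachment (-0.43, GC-adjusted 0.06), and 0 of those 2 passed 2-fold. AMPK phosphorylates and inhibits both carboxylases. Of the 6 subunit genes listed here and the kinase gene *Stk11*, 1 was more than 2-fold higher, the catalytic subunit *Prkaa2*, with 818 and 2664 counts (1.96), and it was within 2-fold once GC-adjusted (0.53). *Stk11* was the lowest of the 7, with 4921 and 2599 (-0.66, GC-adjusted 0.03).

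*Fasn* encodes fatty acid synthase, which builds palmitate from malonyl-CoA. It had the most counts of the 8 genes in both libraries, 88364 in AAV-GFP and 45025 in AAV-*Wee1-AS*, or 270 and 162 TPM. It was 1.63-fold lower in AAV-*Wee1-AS*, with a log2 ratio of -0.71 (-0.73 to -0.69), the lowest of the 8. GC-adjusted, it was at -0.02, the level of genes of like GC content, and with length also adjusted at -0.79. All counts lay on 1 transcript, NM_007988, and the other annotated model was at 0 in both libraries, so its ratio does not turn on the assignment between transcripts. *Fasn* and *Acaca*, neighbouring steps of the pathway, therefore lay at the ends of the range of the 8 ratios as scaled, 1.41 apart on the log2 scale. Of 6 genes of mitochondrial fatty acid synthesis, a separate system, 5 were analysed: 2 were more than 2-fold higher (*Oxsm* at 1.23, *Cbr4* at 1.09), 0 more than 2-fold lower, and the lowest was *Mecr* (-0.61). GC-adjusted, none of these 3 was past 2-fold (*Oxsm* 0.51, *Cbr4* -0.04, *Mecr* 0.0014), and *Ndufab1*, the acyl carrier protein, was past it lower (-1.31, from -0.59 as scaled).

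*Me1* encodes the cytosolic malic enzyme, which makes NADPH as it turns malate into pyruvate. It had 13862 counts in AAV-GFP and 14387 in AAV-*Wee1-AS*, or 129 and 158 TPM, a log2 ratio of 0.32 (0.28 to 0.35), which turned to -0.40 GC-adjusted. Nearly all of them lay on NM_008615 (chr9:86581363-86695914 for the gene, minus strand), with 13851 and 14380 counts. The mitochondrial paralogs were near absent beside it: *Me2* had 194 and 246 counts (0.60, GC-adjusted -0.12) and *Me3* had 13 and 8. Another source of cytosolic NADPH is the pentose phosphate pathway. The 5 genes of it listed here lay below AAV-GFP, between *G6pdx*, the first step, with 639 and 291 counts (-0.87), and *Pgls*, with 3202 and 1624 (-0.72). *Idh1*, the cytosolic isocitrate dehydrogenase, had 9496 and 19023 counts (1.27) and was the only one of these 6 genes past 2-fold (1 higher, 0 lower). GC-adjusted, *Idh1* was at 0.14 and within 2-fold, and the 5 pentose phosphate genes stayed below 0, from *Pgd*, which also makes NADPH, at -0.98 to *Pgls* at -0.10, with *G6pdx* at -0.53. With length also adjusted, *Pgd* was past 2-fold lower (-1.11).

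*Thrsp* encodes Spot 14, a protein induced by thyroid hormone and carbohydrate that acts in lipogenesis without being an enzyme of it. It had 29695 counts in AAV-GFP and 38988 in AAV-*Wee1-AS*. Its transcript is short, and at 818 and 1268 TPM it had the highest level of the 8 in both libraries, rank 179 and rank 112 of all genes. It was 1.58-fold higher in AAV-*Wee1-AS*, with a log2 ratio of 0.66 (0.63 to 0.68) and 0.99 GC-adjusted, on 1 transcript, NM_009381 (chr7:97412933-97417550, minus strand). Its paralog *Mid1ip1*, whose protein promotes the polymerization of ACC1, had 3226 and 2538 counts (-0.08). GC-adjusted, *Mid1ip1* was at 0.53 and *Thrsp* at 0.99, so the signs differed on the first scale and not on this one.

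*Fasn* and *Thrsp* each used 1 start and differed in opposite directions, and their windows are shown side by side. The *Fasn* window lies at chr11:120824548-120824797 and the *Thrsp* window at chr7:97417551-97417800.
*Fasn*: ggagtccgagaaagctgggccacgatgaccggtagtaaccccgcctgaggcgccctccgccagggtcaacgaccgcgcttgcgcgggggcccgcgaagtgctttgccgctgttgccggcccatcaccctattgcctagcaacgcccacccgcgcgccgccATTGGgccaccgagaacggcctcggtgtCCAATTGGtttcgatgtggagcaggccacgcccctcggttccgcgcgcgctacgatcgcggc
*Thrsp*: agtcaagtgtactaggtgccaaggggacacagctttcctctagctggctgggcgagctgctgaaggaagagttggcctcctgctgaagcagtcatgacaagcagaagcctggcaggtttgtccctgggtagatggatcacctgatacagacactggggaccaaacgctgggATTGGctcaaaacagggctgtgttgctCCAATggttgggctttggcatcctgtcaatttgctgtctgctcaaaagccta
The *Fasn* window held 3 matches to the CCAAT box, of which 2 lie over each other, and the *Thrsp* window held 2. Neither held the E-box, the GC box or the sterol response element as written here. The GC content of the windows differed, at 69.2% for *Fasn* and 53.6% for *Thrsp*.

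The ratio of the 8 genes followed the GC content of their transcripts, as it did across all genes. Over the 14995 genes with a GC value, the Spearman coefficient between the log2 ratio and the GC content of the longest transcript was -0.67, and over the 8 lipogenic genes it was -0.90. Both are descriptions across genes of the same 2 libraries, and genes are not independent replicates. The lowest 2 ratios belonged to the members richest in GC, *Srebf1* (58.4%) and *Fasn* (57.9%). *Acacb* (56.7%) and *Mlxipl* (56.6%) were next in GC content and in the order of ratios. *Acly* (52.1%) and *Thrsp* (52.0%) shared a GC content but differed in ratio, 0.25 against 0.66. *Me1* had the lowest GC content (45.1%) and a ratio below those of *Acaca* (49.1%) and *Thrsp*.

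**Figure D3:**
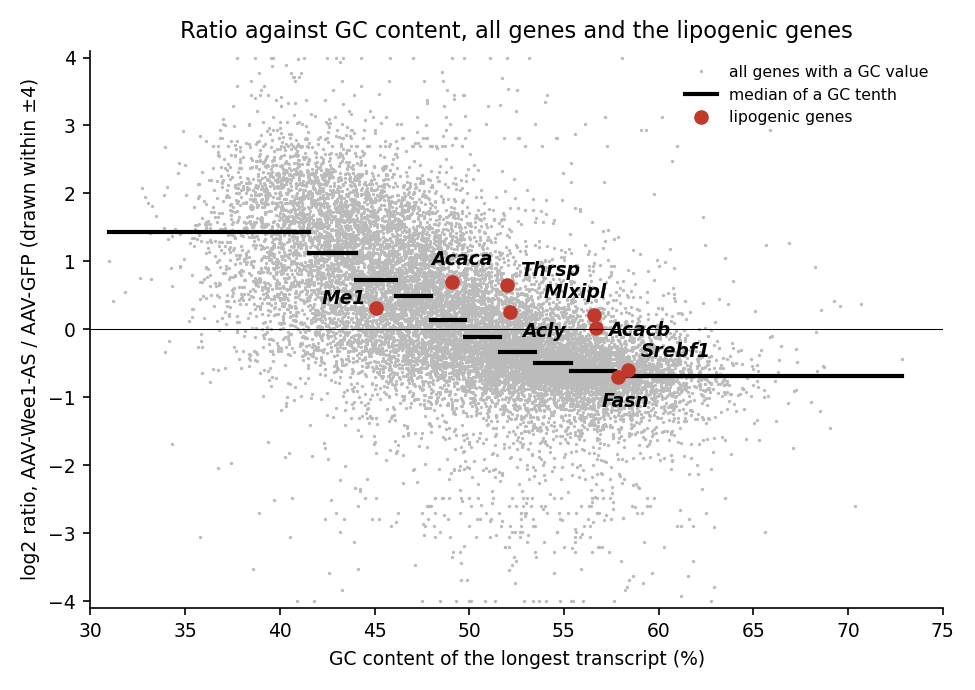
Log2 ratio (AAV-*Wee1-AS* over AAV-GFP) (vertical axis, values beyond 4 drawn at 4) against the GC content of the longest transcript in percent, for 14995 genes (grey), the median of each of 10 groups of equal size (black lines) and the 8 lipogenic genes (red). *Fasn* and *Srebf1* lay close to the median line of their group (-0.02 and 0.09 from it), and *Thrsp*, *Mlxipl* and *Acacb* lay above theirs.

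Genes of like GC content gave another order of the 8. The median log2 ratio was -0.69 in the tenth of genes richest in GC, which holds *Srebf1* and *Fasn*. Less that median, *Srebf1* was at 0.09 and *Fasn* at -0.02, so both had about the ratio of genes of their GC content. *Thrsp* was at 0.99 after subtraction of its group's median of -0.33, and 93.2% of the genes in that group had a lower ratio. *Mlxipl* was at 0.83 and *Acacb* at 0.63 in a group with a median of -0.61. *Acly* was at 0.58, *Acaca* at 0.57 and *Me1* at -0.40, below the median of 0.72 of its group. By this measure 6 of the 8 lay above genes of like GC content and 2 below, with a median of 0.57.

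Transcript length changed this order again. The log2 ratio also moved with the length of the longest transcript across genes (Spearman coefficient 0.35), and the *Fasn*, *Acaca* and *Acacb* transcripts are long. With the trends with GC content and length removed together, *Thrsp* was at 1.04, *Mlxipl* at 0.76 and *Acly* at 0.38. *Srebf1* was at -0.09, *Acaca* at -0.08 and *Acacb* at -0.03, and *Me1* was at -0.39 and *Fasn* at -0.79. Of the 8 genes, *Thrsp* was above 0 and *Fasn* below 0 under all 15 alternative settings, though *Fasn* came as close to 0 as -0.02. The other 6 changed sign under at least 1 setting. The part of GC content and length in these differences was not tested.

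**Figure D4:**
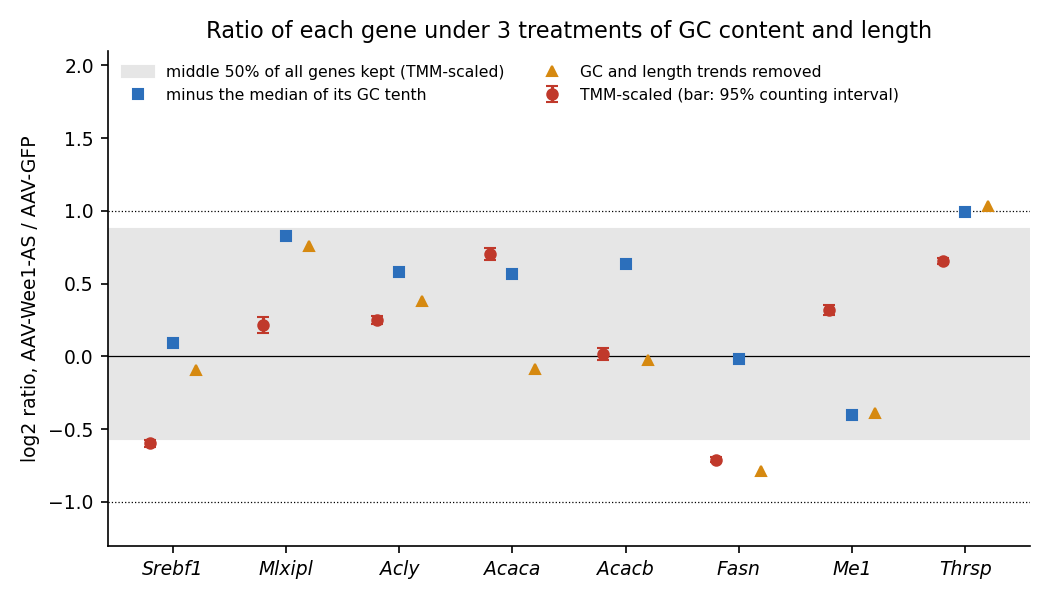
Log2 ratio (AAV-*Wee1-AS* over AAV-GFP) for each lipogenic gene as scaled (circles, bars for the 95% counting interval), less the median of genes of like GC content (squares), and with GC content and length trends removed (triangles). The grey band runs between the quartiles of all genes on the first scale (-0.56 to 0.87), dotted lines mark 2-fold, and *Thrsp* lay above 0 on all 3 scales.

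Genes that act on or beside the 8 were read from lists, to be set beside the median of all genes (-0.02). Of 14 genes that answer to SREBP-1 or the liver X receptor, 1 was more than 2-fold higher and 1 lower, with a median of -0.20. *Elovl6*, which extends the palmitate made by fatty acid synthase, was the highest, with 1506 and 5785 counts (log2 ratio 2.20). *Pnpla3*, a lipid droplet protein, was the lowest, with 137 and 50 (-1.16). GC-adjusted, *Elovl6* was at 1.07 and *Pnpla3* at -0.47, where *Fasn* was at -0.02. With length also adjusted, *Elovl6* was just within 2-fold (0.9986). Of 10 nuclear receptors and factors at lipogenic promoters, 2 were more than 2-fold higher and 0 lower, with a median of -0.19. *Nr1h3*, the liver X receptor α that activates *Srebf1*, had 8704 and 4724 counts (-0.62, GC-adjusted -0.0034). *Nr1h2*, its β form, was the lowest (-0.93, GC-adjusted -0.24) and *Sp1* the highest, with 589 and 1357 counts (1.46). The other gene past 2-fold was *Nfyb*, a subunit of the CCAAT-binding factor NF-Y, with 643 and 1169 (1.12). GC-adjusted, neither stayed past 2-fold (*Sp1* 0.34, *Nfyb* -0.0058), the coactivator gene *Ppargc1b* was past it higher (1.39, from 0.70 as scaled), and the median of the 10 was 0.09. As scaled, 22.2% of all genes were more than 2-fold higher and 8.71% lower. Over the 15 lists of pathway, hormone and clock genes, 15 of 107 genes with a GC value were more than 2-fold higher and 7 lower as scaled. GC-adjusted, 8 were higher and 6 lower: 6 and 3 of those already past 2-fold, with *Ppargc1b* and *Per2* newly higher and *Mpc2*, *Ndufab1* and *Cyp4a14* newly lower. Of all genes with a GC value, 9.34% were higher and 8.92% lower on that scale. With GC content and length trends removed, 4 of the 107 were higher and 6 lower, against 6.93% and 8.92% of all genes. Of the 4 and 6, 3 and 2 had been past 2-fold as scaled.

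**Figure D5:**
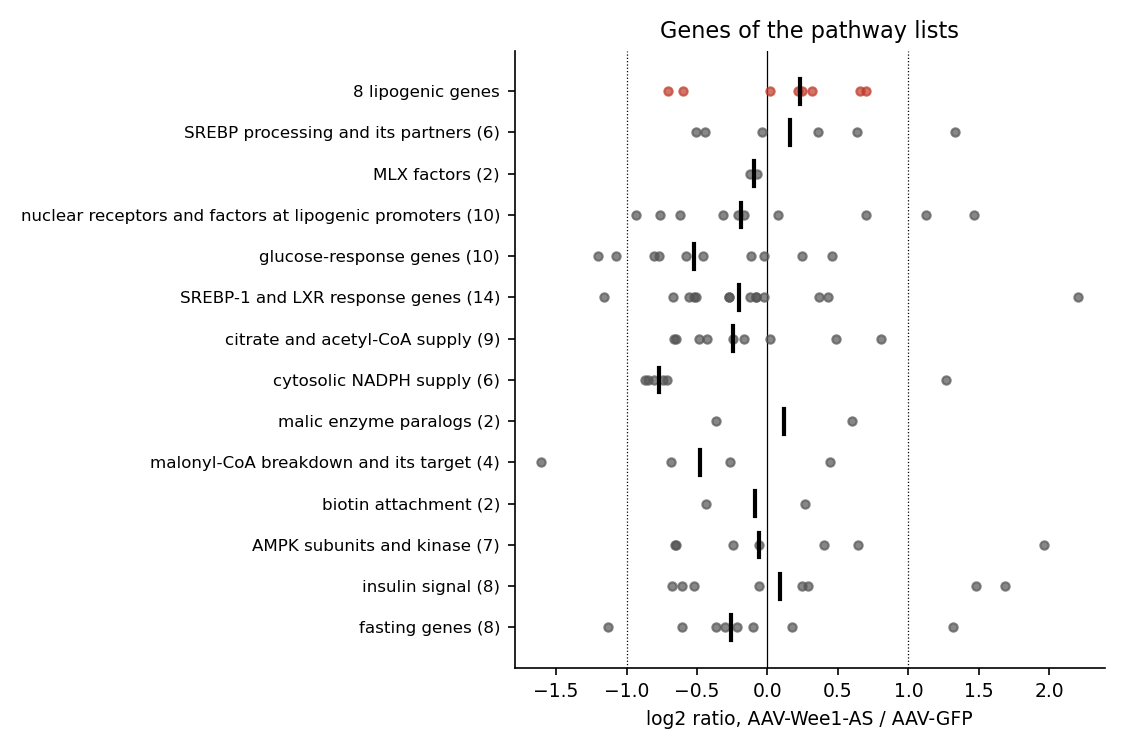
Log2 ratio (AAV-*Wee1-AS* over AAV-GFP) for each gene (points) of the pathway lists, with the median of each list (black bar), the number of genes in brackets and dotted lines at 2-fold. The 8 lipogenic genes (red) lay between -0.71 and 0.70, while *Elovl6* (2.20) and *Prkaa2* (1.96) had the highest log2 ratios outside the clock list.

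Genes of the hormone signals and of the clock that act on hepatic lipogenesis were counted in the same way, beside the 22.2% higher and 8.71% lower of all genes. Of 8 genes of the insulin signal, 2 were more than 2-fold higher and 0 lower, with a median of 0.09, from *Akt1* (-0.68) to *Irs1* (1.68), with the insulin receptor gene *Insr* at 1.48. GC-adjusted, *Akt1* was at 0.01, *Irs1* at 1.80 and *Insr* at 0.99. Of 8 fasting genes, 1 was higher and 1 lower, with a median of -0.26, from *Igfbp1* (-1.13) to *Ppargc1a* (1.31), which were at -1.01 and 0.18 GC-adjusted, where *Cyp4a14* was also past 2-fold lower (-1.08). Of 14 clock genes, 4 were more than 2-fold higher and 2 lower, with a median of 0.46. The highest was *Nr1d2*, with 666 and 3389 counts (2.61), and the lowest *Npas2*, with 15 and 0. *Clock* (2.55), *Cry1* (1.14) and *Per3* (1.01) were the others past 2-fold upward, and *Nr1d1*, the close paralog of *Nr1d2*, was the other past it downward (-1.24). GC-adjusted, *Nr1d1* was within 2-fold (-0.63), the others stayed past it, though *Npas2* had few counts, and *Per2* moved past it (0.79 to 1.29). With length also adjusted, *Clock* (0.63), *Per3* (0.94), *Per2* (0.89), *Igfbp1* (-0.90) and *Cyp4a14* (-0.88) were within 2-fold. The sources used here do not give the hour of collection of each liver, and its part in the values of the 8 genes was not tested.

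Markers of other liver cells and of the zones of the lobule were checked by the same lists. Of all genes, 22.2% were more than 2-fold higher and 8.71% lower as scaled, and 9.34% and 8.92% GC-adjusted. Pericentral genes, where lipogenesis is known to be more active, had 1 of 5 more than 2-fold higher and 0 lower (median -0.06, from *Rhbg* at -0.73 to *Slc1a2* at 1.54). Periportal genes had 0 of 5 past 2-fold (median -0.14, from *Cyp2f2* at -0.85 to *Hsd17b13* at 0.02). Hepatocyte markers had 2 of 8 higher and 0 lower (median 0.07, from *Ttr* at -0.62 to *Apob* at 1.82, with *Cps1* at 1.21). Past 2-fold were 0 of 5 cholangiocyte, 0 of 5 endothelial, 2 of 5 stellate, 2 of 5 Kupffer and 1 of 5 lymphocyte markers. GC-adjusted, 1 of the 7 upward calls over these lists and the adipocyte list (9 in all) stayed past 2-fold (*Ms4a1*), and the 1 downward call, *Col1a1*, did. *Ttr* (-1.11), *Spp1* (-1.34) and *Dcn* (-1.10) were past 2-fold lower on that scale but not as scaled. With length also adjusted, *Spp1* (-1.05) and *Dcn* (-1.20) were past it and *Ttr* (-0.99) was not. The summed level went from 44.1 to 37.9 TPM for the cholangiocyte list, from 126 to 104 TPM for the endothelial, from 108 to 114 TPM for the stellate, from 330 to 262 TPM for the Kupffer and from 3.44 to 2.43 TPM for the lymphocyte list. The extremes were *Krt19* (-0.67) and *Sox9* (0.79), *Clec4g* (-0.50) and *Kdr* (0.55), *Col1a1* (-2.32) and *Lrat* (1.46), *Cd5l* (-0.76) and *Vsig4* (1.52, beside *Timd4* at 1.40), and, at 67 and 28 counts, *Cd79a* (-0.95) and, at 0 and 23, *Ms4a1*. The part of these cells in the values of the 8 genes was not tested.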

How the data were processed

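Poly-A liver RNA was sequenced in 2 libraries. Per the submitters' processing notes, the tools were Trimmomatic 0.38, HISAT2 2.1.0, SAMtools 1.9 and StringTie 2.1.3b, with build mm10. The authors deposited estimated counts, FPKM and TPM for each RefSeq transcript (129299 in all). The estimated counts are not normalized, and FPKM and TPM are scaled by the authors to length and library. Here counts were summed per symbol and scaled by edgeR 4.0.16 TMM on all genes (R 4.3.3), and log2 ratios were taken with a prior count of 2. Called means past 2-fold. GC content came from the longest GENCODE transcript (94.6% of genes kept), and lowess trends (span 0.3, 5 cycles) were removed with statsmodels 0.14.6 in Python 3.11.15. Motifs were searched in RefSeq windows of 250 bases. The steps were tested on simulated data. The named genes are the 8 members, their paralogs and partners, the extremes of each other list, and member transcripts of at least 5%. *Fgf21*, *Slc2a2*, *Cbr4*, *Nfyb*, *Insr*, *Clock*, *Cry1*, *Per3*, *Nr1d1*, *Cps1*, *Timd4*, *Pgls*, *Pgd*, *Mpc2*, *Ndufab1*, *Ppargc1b*, *Per2*, *Cyp4a14*, *Spp1*, *Dcn*, XM_006530114, NR_152881, NR_152882, minor start sites, minor 3′ ends, overlapping genes and adipocyte markers were named beyond that rule after their values were seen. Members and lists were chosen with earlier results of these data known. A list gene is not reported here. Alternatives were other scalings (DESeq2 1.42.0 among them), count filters, prior counts, FPKM and TPM with a pseudocount of 1, curated transcripts, and removal of trends.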

Additional observations from a re-analysis of the deposited data

How the results depend on the processing

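The count of members past 2-fold was 0 in each direction, and it moved under 2 settings: 1 was lower (*Fasn*, log2 ratio -1.75) with the length trend alone removed, and 1 was higher (*Thrsp*) with GC content and length trends removed. The median log2 ratio of the 8 (0.23) was 0.17 with library totals, 0.18 with totals without the 20 most abundant genes, 0.11 with the upper quartile, 0.11 with FPKM, 0.13 with TPM, -0.22 with curated transcripts only, -0.16 with the length trend removed, -0.056 with GC content and length trends removed and 0.57 less the median of genes of like GC content. It was above 0 in 12 of 15 alternatives. The upper quartile moved the median of all genes by -0.12. *Acacb* was on either side of 0 across the scalings, at -0.10 with the upper quartile and 0.03 with DESeq2 size factors. The cause of these shifts was not tested. The scaling on genes kept and the 1.5-fold limit were added after the data were seen. No paired analysis was possible because each group had 1 library, and for the same reason no replicate could be left out. Counting error is small at these depths, but it does not cover the spread between mice, which 1 library per group cannot show. Values also moved with the processing, as for *Fasn* (-1.75 to -0.02 over the settings).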
